A study of Drosophila melanogaster with 12 samples.

Results

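The genes described here encode the vacuolar ATPase (V-ATPase) and the autophagy machinery of Drosophila melanogaster. They are the rows of the deposited expression table whose symbol begins with Vha, or with Atg and a digit, and that reached at least 10 normalised counts in at least 3 of the 12 libraries. A normalised count is the number of reads of a gene divided by a size factor of its library. Among its 12216 genes the symbols matched 43, 24 Vha and 19 Atg genes. The filter left 38 of them, 19 Vha and 19 Atg genes, among 8455 genes of the whole table.

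RNA was sequenced from wing imaginal discs, the larval epithelia that give rise to the wings, of wild-type w1118 larvae raised at 25°C. Larvae were staged to 24 h past their moult to the third instar, and the excised discs spent 2.5 h in Dye medium, where the labels give the figure without a unit and hours are assumed. The medium of the 4 groups held 0, 20, 200 or 2000 nM 20-hydroxyecdysone (20E), the active moulting hormone, with 3 libraries per dose. The discs of all groups, the 0 nM discs included, were cultured outside the larva. The series, by its title, is about how proliferation under the ecdysone receptor depends on the level of the hormone.

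The V-ATPase is a rotary proton pump that acidifies endosomes, lysosomes and secretory compartments. Its cytosolic V1 sector splits ATP and drives the membrane-embedded V0 sector, through which protons pass. Acidified lysosomes degrade what autophagy delivers, and the pump is also part of the lysosomal surface where the TORC1 kinase senses amino acids. In autophagy the Atg1 kinase complex and a lipid kinase complex start a membrane that conjugated Atg8 extends around cytoplasm. In larval fat body, midgut and salivary gland of Drosophila, 20E is known as an inducer of autophagy, and in wing discs the V-ATPase is known to be needed for normal endocytic signalling.

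Libraries held 9034719 to 27006374 reads, and 1 read equalled 0.565 to 1.69 normalised counts. All 7 wing disc markers looked for were present, with a summed level of 30060.3 to 32454 normalised counts at 2000 nM and 20482 to 22174 at 0 nM. The salivary gland glue genes Sgs3, Sgs7 and Sgs8 stayed near 0, at a summed 2.98 to 11.3 normalised counts at 2000 nM and 0 to 3.2 at 0 nM. The 6 fat body markers summed to 71.5 to 142 at 2000 nM and 41.5 to 1637 at 0 nM, where 0 nM replicates 1 and 3 held the most. The 5 tracheal markers summed to 15844 to 16209 at 2000 nM and 19777 to 22224 at 0 nM, and the 5 adult muscle precursor markers to 3228 to 3912 and 4037 to 4555. The 6 blood cell markers summed to 34.8 to 119.8 and 25.3 to 83.8, and the 3 neuron and glia markers to 616 to 778 and 312 to 453. Tracheal and muscle precursor sums were lower, and wing disc and neuron and glia sums higher, in every library at 2000 nM than in any at 0 nM. The members of these lists did not all move alike. Of the fat body markers, Lsp1alpha, Lsp1beta and Lsp2 stood highest in 0 nM replicates 1 and 3, and apolpp in 0 nM replicate 3. Fbp1 went the other way, at 10.1 to 26.9 normalised counts at 2000 nM and 0 to 5.33 at 0 nM. Fbp2 peaked at 56.9 in 2000 nM replicate 2. Of the 6 fat body markers 1 was called higher at 2000 nM and none lower. Of the tracheal markers verm, which made up most of the sum, and serp fell at 2000 nM, while trh rose by 0.41 ± 0.07 log2 (adjusted p = 0.000373) and btl and Gasp were not called. Of the muscle precursor markers twi, htl and stumps fell, zfh1 rose by 0.51 ± 0.13 log2 (adjusted p = 0.00843) and Mef2 was not called. The neuron and glia sum was nearly all elav, with nSyb at no more than 21.8 and repo at no more than 3.93 normalised counts in any library. The part of these tissues in the results below was not tested.

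Of the 38 genes 35 reached 10 normalised counts in all 12 libraries. The other 3, Vha68-1, Vha36-3 and Vha100-4, reached it in exactly 3 libraries and so lie just inside the filter, with ranges over the 12 libraries of 0 to 14.9, 1.69 to 30.0 and 0 to 30.8 normalised counts. Just outside it were VhaPPA1-2, at 1.57 to 10.4, and Vha68-3, at 1.31 to 15.0, each with 1 library at 10 or more. Vha100-3, Vha14-2 and Vha16-5 never exceeded 3.37, 3.04 and 1.69 normalised counts. All 19 Atg genes stood at 10 or more in all 12 libraries. The annotated relatives Atg8b, Vha100-5, Vha16-2, Vha16-3, Vha16-4, Vha36-2, VhaAC39-2, VhaM9.7-a and VhaM9.7-d were not among the matched rows and were not analysed here.

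Among the matched genes, each V-ATPase subunit came from 1 dominant gene in these discs, except subunits a and e. Levels of different genes are compared as normalised counts per kb of annotated exon, in the 0 nM libraries. That length merges the exons of all annotated transcripts of a gene. Which transcripts were present was not examined, so the order of genes is uncertain to that extent. Vha16-1, the proteolipid c subunit of the membrane ring, stood highest at 3828 ± 103 per kb (SD, n = 3), followed by the catalytic A subunit Vha68-2 at 1802 ± 38.3. The G subunit Vha13, the B subunit Vha55 and the E subunit Vha26 came next at 1109.7 ± 44.3, 1088 ± 35.5 and 1039 ± 5.27 per kb, and the first 2 of these did not differ beyond their spread. VhaPPA1-1, the c'' subunit, stood at 896 ± 34.2 and the accessory subunit VhaAC45 at 805 ± 39.9 per kb. The D subunit Vha36-1 (759 ± 39.6), Vha100-2 (747 ± 41.2), the d subunit VhaAC39-1 (717 ± 39.5) and the F subunit Vha14-1 (706 ± 40.7) overlapped within their SDs. Below them were the H subunit VhaSFD at 529 ± 30.8, Vha100-1 at 428 ± 21.1, the e subunit VhaM9.7-b at 393 ± 51.0, the C subunit Vha44 at 315 ± 21.4 and VhaM9.7-c at 151 ± 6.19 per kb.

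For subunit a, which couples the sectors and holds the proton path, Vha100-2 made up 53.2% of the summed level per kb at 2000 nM and 63.5% at 0 nM, and Vha100-1 nearly all of the rest. For subunit e, VhaM9.7-b made up 64.9% at 2000 nM and 72.3% at 0 nM. Both sums take in the matched genes only. Among the Atg genes Atg8a, the ubiquitin-like protein that coats the forming membrane, had the highest level at 2687 ± 211 per kb, above Atg18a at 603 ± 23.0. The lowest were Atg10 at 63.4 ± 4.17 per kb, Atg12 at 93.5 ± 6.18 and Atg18b at 95.5 ± 6.90.

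Of the 19 Vha genes tested, 10 fell and 1 rose at 2000 nM against 0 nM (limma's moderated test, Benjamini-Hochberg adjusted p under 0.05), against 15.5% lower and 15.4% higher among all 8455 genes. Their median log2 fold change was -0.32, and that of all genes -0.00404. Higher levels give a test more precision, so genes above a shared floor are a closer yardstick than all genes. Of the 15 Vha genes with a mean of at least 200 normalised counts 10 were lower, against 18.4% of the 5716 genes past that floor. The floor does not match the sets in level or precision. The median SE was 0.061 for these Vha genes and 0.089 for the 5716 genes, so the Vha genes were still measured more precisely. The fall was moderate in size, from 1.16-fold for Vha44 to 1.63-fold for Vha68-2. In bulk discs, fewer cells with much of a transcript and less of it per cell cannot be told apart.

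**Figure D1:**
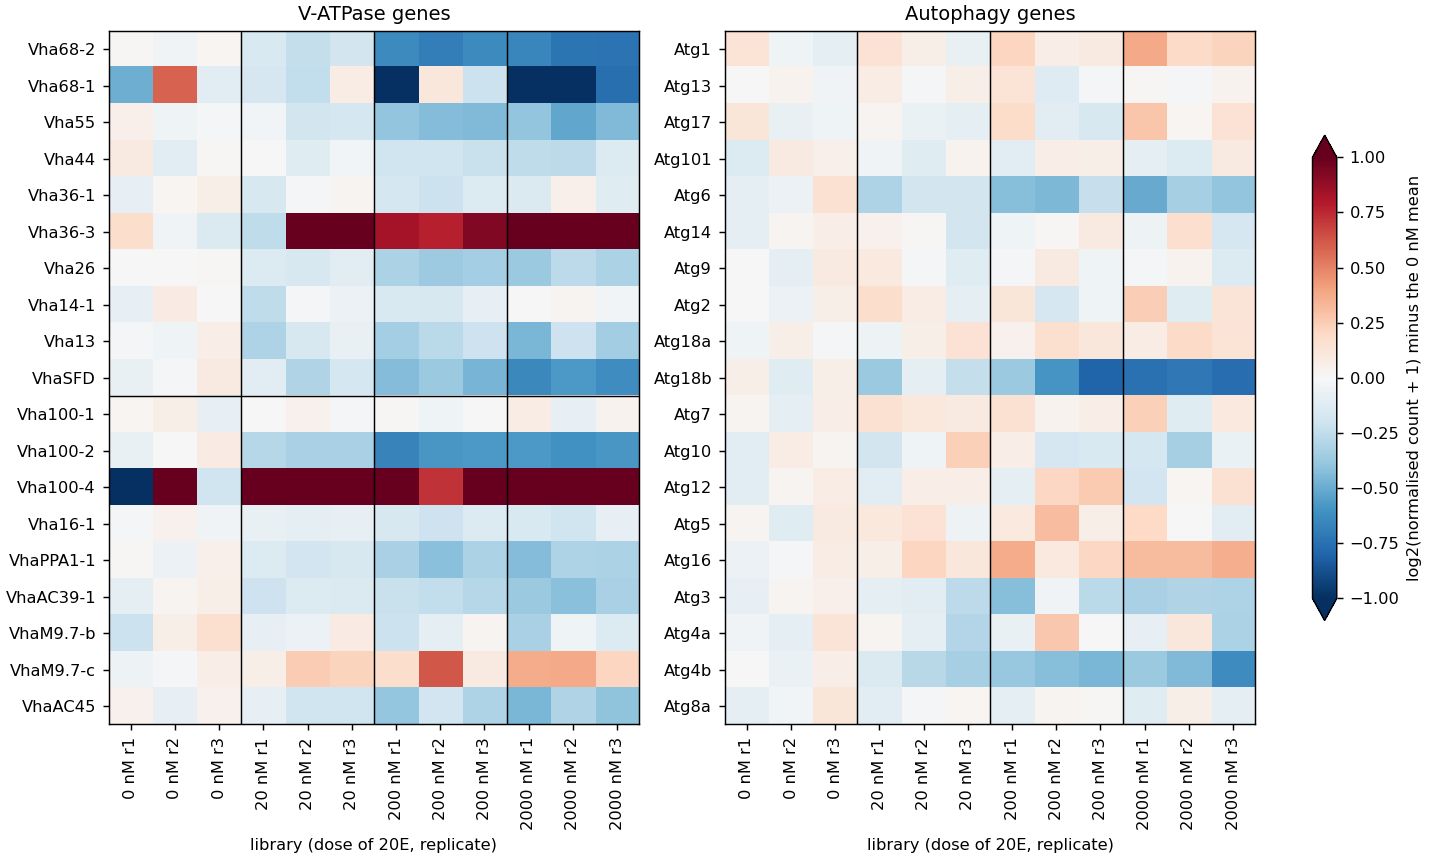
Each row is a gene and each column a library, in order of dose and replicate; colour gives log2(normalised count + 1) minus the gene's mean in the 3 libraries at 0 nM, and colours saturate at 1 in either direction. The line across the V-ATPase panel separates the V1 genes above from the V0 genes below, and most rows of that panel turn blue from 20 to 200 nM, while most rows of the autophagy panel stay pale. The saturated rows Vha68-1, Vha36-3 and Vha100-4 hold only a few reads.

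Among the V1 genes, 6 of 10 fell at 2000 nM. The catalytic A subunit gene Vha68-2 (FBgn0263598) fell most. It had 5020.4, 4849.5 and 5042 at 0 nM, 4481, 4208 and 4369.7 at 20 nM, 3204, 3085 and 3199.9 at 200 nM and 3156, 2989 and 2982 at 2000 nM (normalised counts). Its 3 libraries at 2000 nM all lay below those at 20 nM and 0 nM, and those at 20 nM below those at 0 nM. Its log2 fold change was -0.71 ± 0.05 (SE) at 2000 nM (adjusted p = 1.63e-07) and -0.65 ± 0.05 at 200 nM (5.09e-07), with -0.19 ± 0.05 at 20 nM, where it missed the threshold (adjusted p = 0.0651).

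Vha55 (FBgn0005671), the B subunit that completes the ATP-binding hexamer with A, had 3141, 2947 and 3008 at 0 nM, 2970.1, 2675 and 2678 at 20 nM, 2301, 2242 and 2229 at 200 nM and 2300.2, 2118 and 2228 at 2000 nM (normalised counts). The 200 and 2000 nM libraries all lay below the 20 and 0 nM libraries, whereas 20 nM replicate 1 fell among the 0 nM libraries. The fall was 1.37-fold at 2000 nM, a log2 fold change of -0.45 ± 0.06 (adjusted p = 5.19e-05), and 1.34-fold at 200 nM (adjusted p = 0.000124).

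VhaSFD (FBgn0027779) encodes the H subunit, which links V1 to V0 and keeps free V1 from splitting ATP. It had 1416, 1483 and 1589 at 0 nM, 1379.6, 1216 and 1324 at 20 nM, 1107, 1154 and 1084 at 200 nM and 955, 1002 and 972 at 2000 nM (normalised counts). Each dose lay wholly below the dose before it, without overlap between any neighbouring groups. The log2 fold change was -0.61 ± 0.07 at 2000 nM (adjusted p = 6.54e-06), -0.42 ± 0.07 at 200 nM (0.000302) and -0.20 ± 0.07 at 20 nM, where it was not called (0.159).

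Vha26 (FBgn0283535) and Vha13 (FBgn0283536) encode subunits E and G, which pair in the peripheral stalks. Vha26 had 3033, 3032 and 3059 at 0 nM, 2761, 2726 and 2817 at 20 nM, 2439, 2366 and 2408 at 200 nM and 2357, 2531 and 2439 at 2000 nM (normalised counts). The 3 values at 0 nM lay close together and above every other library. Vha13 had 1033, 1013 and 1093 at 0 nM, 843, 937 and 992 at 20 nM, 826, 869 and 908 at 200 nM and 763, 907 and 823 at 2000 nM, with the 0 nM libraries again above all others, by a narrow margin over 20 nM replicate 3. Vha26 fell by 1.25-fold at 2000 nM (log2 fold change -0.32 ± 0.05, adjusted p = 0.0003) and Vha13 by 1.26-fold (-0.33 ± 0.08, adjusted p = 0.00584). At 200 nM Vha26 stood at -0.34 ± 0.05 (adjusted p = 0.000221) and Vha13 at -0.27 ± 0.08 (adjusted p = 0.0269; 0.00864 to 0.103 across the settings tried). The Vha13 call at 200 nM ended without 0 nM replicate 1 (0.0552) or 3 (0.103) and without 200 nM replicate 1 (0.0913) or 2 (0.0662).

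The C subunit gene Vha44, whose product clamps the stalks to the membrane sector, averaged 1089 ± 56.4 normalised counts at 2000 nM and 1268 ± 86.0 at 0 nM. It fell by 1.16-fold (adjusted p = 0.0236; 0.00805 to 0.0937 across the settings tried), the least of the 10. The call ended without 0 nM replicate 1 (0.0937) or 3 (0.071), without 2000 nM replicate 1 (0.0747) or 2 (0.0653), and when only the 2 doses entered the fit (0.0681). At 200 nM its adjusted p was 0.0412 and 0.0208 to 0.158 across the settings tried. This call ended with no filter on low values, in a fit of the 2 doses alone, and without 0 nM replicate 1 or 3, 20 nM replicate 2 or 3, or any 200 nM replicate.

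The D and F subunit genes, whose products form the central rotor stalk, were not called. Vha36-1 averaged 769 ± 59.5 normalised counts at 2000 nM and 807 ± 42.1 at 0 nM, a log2 fold change of -0.07 ± 0.08 with a 95% interval of -0.24 to 0.09. Vha14-1 averaged 466 ± 8.85 and 465 ± 26.8, a log2 fold change of 0.00 with an interval of -0.17 to 0.18. The interval of Vha14-1 does not reach the -0.71 of Vha68-2. The log2 ratio of Vha68-2 to Vha14-1 within a library was 2.7 ± 0.05 at 2000 nM and 3.42 ± 0.11 at 0 nM (SD, n = 3 each), a comparison that no scaling of the libraries can alter. It differed between the 4 doses by an exact permutation test of the F statistic (two-sided p = 0.000974, 0.0013 adjusted over the 4 gene ratios tested, which were chosen after the values were seen).

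**Figure D2:**
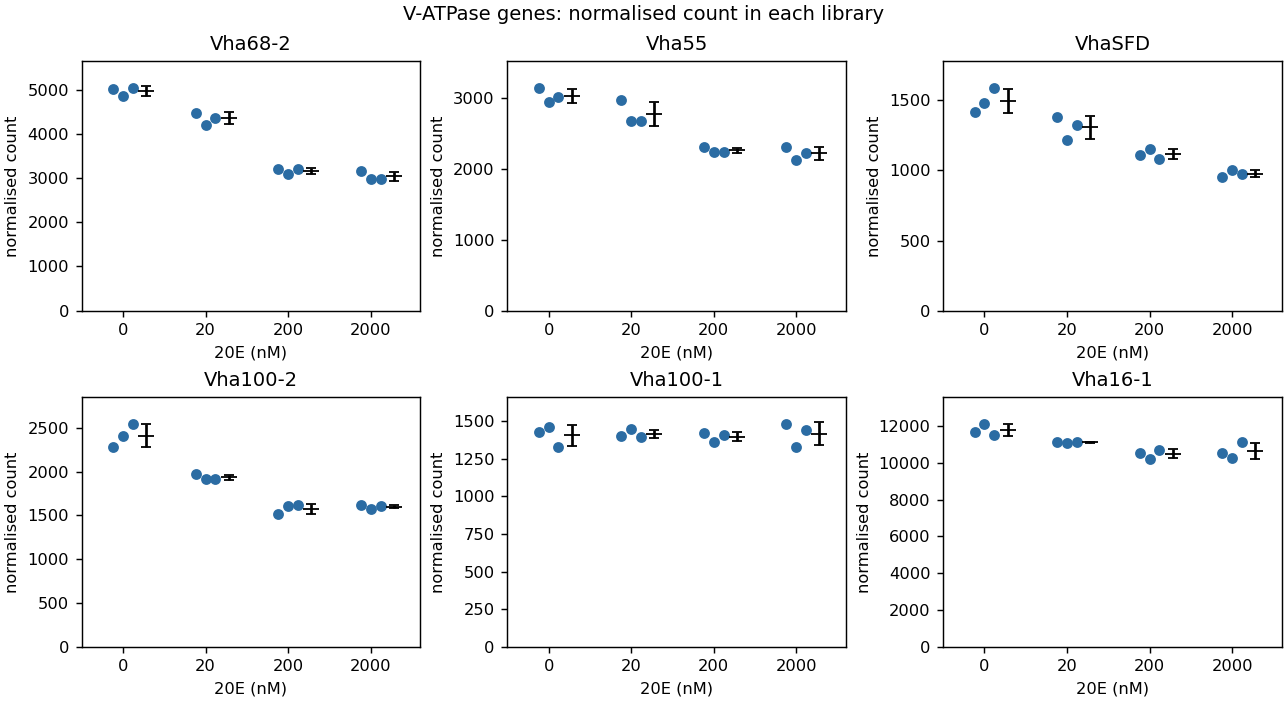
Normalised counts in each library against the 20E dose for 6 V-ATPase genes; points are the 3 libraries of a dose, offset for legibility, and the bar beside them is the mean ± SD. Vha68-2, Vha55, VhaSFD and Vha100-2 step down from 0 to 200 nM, Vha100-1 spans 1329 to 1483 in the 12 libraries, and Vha16-1 averages 10655 at 2000 nM and 11779 at 0 nM.

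In the V0 sector 4 of 9 genes fell at 2000 nM. The a subunit gene Vha100-2 (FBgn0028670) had 2279, 2401 and 2545 at 0 nM, 1970.0, 1919 and 1919 at 20 nM, 1511, 1604 and 1615 at 200 nM and 1613, 1577 and 1609 at 2000 nM (normalised counts). The 20 nM libraries lay between the 0 nM libraries above and the 200 and 2000 nM libraries below, without overlap. It was the 1 gene of the family called at 20 nM, with a log2 fold change of -0.31 ± 0.06 (adjusted p = 0.00375, against 1.54% of all genes called lower), and stood at -0.61 ± 0.06 at 200 nM (2.09e-06) and -0.59 ± 0.06 at 2000 nM (2.32e-06).

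The other abundant a subunit gene, Vha100-1, known in flies for a role in neurons, had no such shift. Its log2 fold change at 2000 nM was 0.01 ± 0.06, with a 95% interval of -0.12 to 0.14, and -0.01 ± 0.06 at 200 nM. The log2 ratio of Vha100-2 to Vha100-1 within a library was 0.78 ± 0.14 at 0 nM, 0.45 ± 0.04 at 20 nM, 0.17 ± 0.08 at 200 nM and 0.18 ± 0.06 at 2000 nM (SD, n = 3 each). It differed between doses (exact permutation test of F, p = 0.000649, 0.0013 adjusted over the 4 ratios). This pair, too, was chosen after the values were seen.

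VhaPPA1-1 (FBgn0028662), the c'' subunit of the proteolipid ring, had 1221, 1160.2 and 1251 at 0 nM, 1101, 1060.0 and 1082 at 20 nM, 967, 906 and 973 at 200 nM and 898, 978 and 969 at 2000 nM (normalised counts). VhaAC39-1 (FBgn0285910), the d subunit on which the rotor stalk sits, had 1204, 1310.4 and 1339 at 0 nM, 1111, 1165 and 1158 at 20 nM, 1098, 1079 and 1055 at 200 nM and 991, 961 and 1025 at 2000 nM. In both genes every hormone-treated library lay below the 0 nM libraries. Their log2 fold changes at 2000 nM were -0.35 ± 0.06 (adjusted p = 0.000596) and -0.37 ± 0.06 (adjusted p = 0.000326), and at 200 nM -0.35 ± 0.06 (0.00079) and -0.25 ± 0.06 (0.0079).

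VhaAC45 (FBgn0262515), an accessory membrane glycoprotein of the pump, had 1666, 1528 and 1668 at 0 nM, 1533, 1409 and 1409.7 at 20 nM, 1238, 1416 and 1305 at 200 nM and 1182, 1315 and 1228 at 2000 nM (normalised counts). The 200 and 2000 nM libraries lay below all 0 nM libraries, while 20 nM replicate 1 passed the lowest of them by a few counts. It fell by 1.31-fold at 2000 nM (log2 fold change -0.38 ± 0.07, adjusted p = 0.000887) and by 1.23-fold at 200 nM (adjusted p = 0.00749). ATP6AP2, a further accessory gene of the pump whose symbol puts it outside the rule, averaged 1147 ± 43.0 at 2000 nM and 1368 ± 109.7 at 0 nM, a log2 fold change of -0.25 ± 0.07 (adjusted p = 0.0125). CG31030, annotated as VhaAC45RP and likewise outside the rule, averaged 258 ± 137 at 2000 nM and 295 ± 116 at 0 nM and was not called (log2 fold change -0.23 ± 0.35, adjusted p = 0.671).

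Vha16-1, the most abundant gene of the family, averaged 10655 ± 437 normalised counts at 2000 nM and 11779 ± 317 at 0 nM, a log2 fold change of -0.15 ± 0.06 (adjusted p = 0.0795). It was not called, but was called lower when libraries were scaled to their total (0.0411) or upper quartile (0.0363). The e subunit genes were not called either. VhaM9.7-b stood at 424 ± 42.2 and 478 ± 62.0, and VhaM9.7-c at 159.9 ± 9.75 and 128 ± 5.25, a log2 fold change of 0.32 ± 0.14 (adjusted p = 0.0945). Without 200 nM replicate 2, VhaM9.7-c was called higher at 2000 nM (adjusted p = 0.0412).

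The fall took shape between 0 and 200 nM. At 20 nM 1 Vha gene fell (1 of the 15 at a mean of at least 200, against 1.75% of genes at such levels) and limma, limma-voom and an unadjusted p under 0.05 each gave 0 higher, against 2.97% of all genes by limma. At that dose 9 were lower at an unadjusted p under 0.05, a threshold whose share over all genes was not computed, so the 9 have no yardstick. In 8 of 19 genes all 3 libraries at 20 nM lay below all 3 at 0 nM, against 8.18% of all genes. In 0 they lay above, against 9.06%. The median of the family at that dose was -0.11, and -0.00146 for all genes. At 200 nM 10 of 19 fell, against 10.4% of all genes, with a median of -0.25, and 0.00308 for all genes. None was higher there by limma, limma-voom or an unadjusted p under 0.05, against 9.92% of all genes by limma. In 13 of 19 all 3 libraries at 200 nM lay below all 3 at 0 nM and in 2 above, against 17.4% and 17.1% of all genes. At 2000 nM all 3 libraries lay below all 3 at 0 nM in 12 of 19 Vha genes, against 21% of all genes. These comparisons share the 0 nM libraries.

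The step from 20 to 200 nM was called for 4 Vha genes, all lower at 200 nM, against 3.76% of all genes lower and 4.23% higher. They were Vha68-2 at -0.46 ± 0.05 log2 (adjusted p = 5.81e-05), Vha100-2 at -0.30 ± 0.06 (0.00404), Vha55 at -0.30 ± 0.06 (0.00579) and Vha26 at -0.20 ± 0.05 (0.0238). The Vha26 step, at 0.0115 to 0.107 across the settings tried, was lost without any 20 nM replicate, 200 nM replicate 2 or 3, or when only the 2 doses entered the fit. VhaSFD narrowly missed the threshold in this step, at -0.23 ± 0.07 log2 (adjusted p = 0.0519). It was called lower with the filter of at least 50 (0.0458), the replicate block (0.0436) and without 20 nM replicate 2 (0.0389). Scaling to the library total (0.0384) or upper quartile (0.0435) also called it. VhaPPA1-1 was called lower with scaling to the library total (0.0493). From 200 to 2000 nM limma called no Vha gene, where 1 was higher and 1 lower at an unadjusted p under 0.05 and limma-voom called 0. The 1 lower was VhaSFD, at -0.19 ± 0.07 log2 (unadjusted p = 0.0121, adjusted p = 0.319). Over all genes 0.166% were higher and 0.0355% lower in that step.

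**Figure D3:**
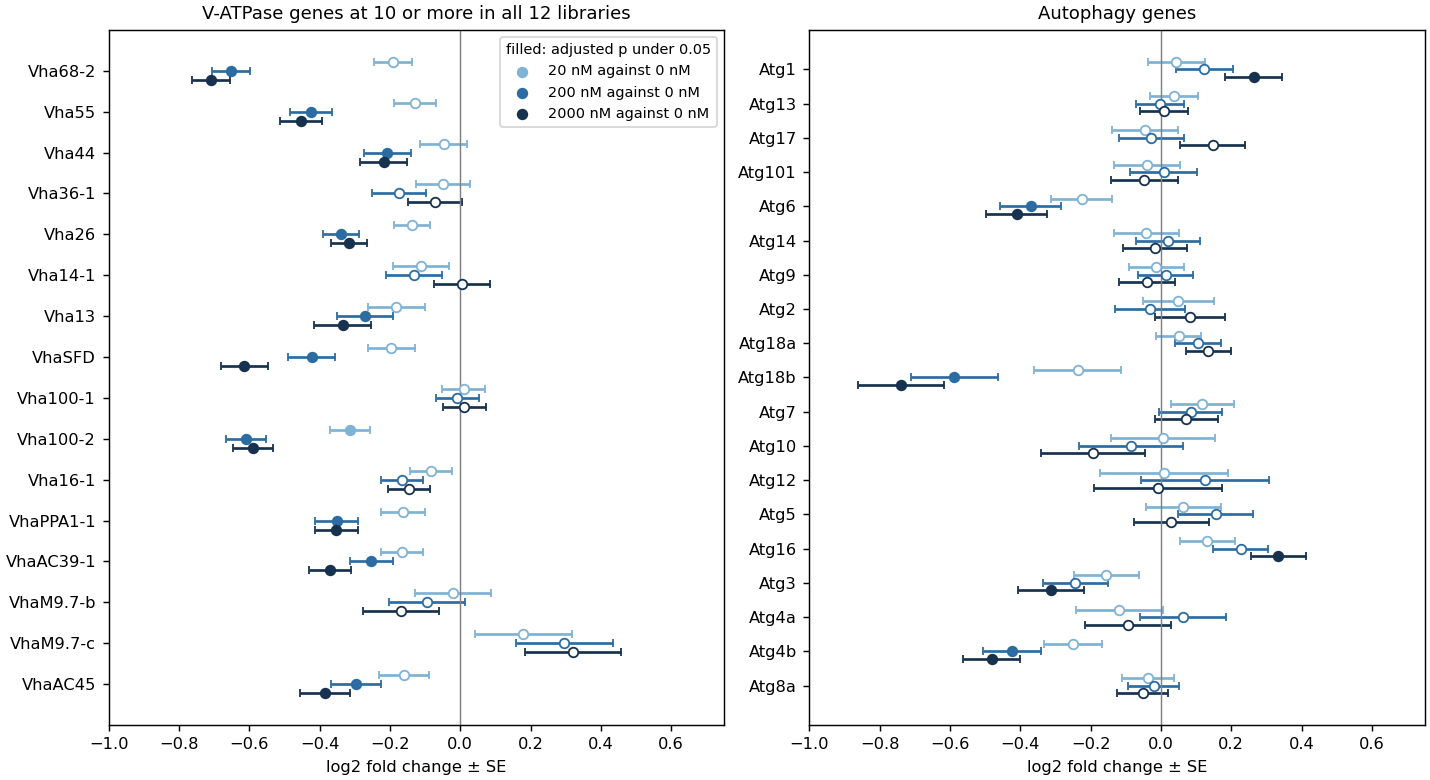
Log2 fold change ± SE against 0 nM at 20, 200 and 2000 nM for the 16 V-ATPase genes at 10 or more normalised counts in all 12 libraries and the 19 autophagy genes; filled points have an adjusted p under 0.05. Most V-ATPase genes lie left of 0 at every dose, with the 200 and 2000 nM points close together, while the autophagy genes scatter around 0 apart from the filled ones.

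The 3 genes just inside the filter are counterparts of dominant subunit genes. Vha36-3, a D subunit gene, had 2.62, 2.13 and 1.90 at 0 nM, 1.69, 6.78 and 10.8 at 20 nM, 4.71, 4.48 and 5.07 at 200 nM and 16.7, 6.32 and 30.0 at 2000 nM (normalised counts). The 2000 nM libraries lay above the 0 nM libraries, with replicate 3 far above the others. It was the 1 Vha gene called higher at 2000 nM (17.7 ± 11.9 against 2.22 ± 0.368 at 0 nM, adjusted p = 0.0137; 0.00489 to 0.0794 across the settings tried), a call lost without 2000 nM replicate 3 (0.0794). Vha36-3 did not pass limma's F test over all contrasts with 0 nM (adjusted p = 0.081). It passed the filter through 2 of its 2000 nM libraries and 1 at 20 nM, so the filter itself favoured a higher level there.

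Vha100-4, an a subunit gene, stood at 30.8 normalised counts in 2000 nM replicate 3 and at no more than 11.9 in any other library. It was not called at 2000 nM (adjusted p = 0.0897), but was called higher without 0 nM replicate 2 (adjusted p = 0.00958). Vha68-3, an A subunit gene below the filter, also peaked in 2000 nM replicate 3, at 15.0 normalised counts against at most 8.12 elsewhere. These peaks were picked out after their values were seen. Vha68-1, the near relative of Vha68-2, averaged 4.0 ± 1.11 at 2000 nM and 10.1 ± 4.32 at 0 nM and was not called (adjusted p = 0.304). How reads that match more than 1 gene were assigned was not found in the labels, and the sequences of these relatives were not compared. The split between genes of a subunit, such as Vha68-1 and Vha68-2, or Vha36-1 and Vha36-3, is therefore uncertain.

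The autophagy genes did not move as one. At 2000 nM 4 of 19 Atg genes fell and 2 rose, beside the 15.5% lower and 15.4% higher of all genes. At 200 nM 3 fell, against 10.4% of all genes, and limma called none higher, against 9.92% of all genes, though 1 was higher at an unadjusted p under 0.05 and limma-voom called 0. At 20 nM limma and limma-voom called 0 of 19, against 1.54% of all genes lower and 2.97% higher by limma, and 2 were lower at an unadjusted p under 0.05. From 20 to 200 nM limma and limma-voom called no Atg gene, with 1 lower at an unadjusted p under 0.05, and from 200 to 2000 nM limma, limma-voom and the unadjusted p each gave 0. Against 0 nM their median log2 fold change was -0.01 at 20 nM, 0.01 at 200 nM and -0.02 at 2000 nM.

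In the initiation complex, the kinase gene Atg1 averaged 1529.9 ± 106 normalised counts at 2000 nM and 1275 ± 112 at 0 nM. Its rise of 1.20-fold (log2 fold change 0.26 ± 0.08, adjusted p = 0.0253; 0.00166 to 0.111 across the settings tried) was lost without 0 nM replicate 2 (0.0734) or 3 (0.111) or 2000 nM replicate 1 (0.102). Atg1 did not pass limma's F test over all contrasts with 0 nM (adjusted p = 0.104). The authors' deposited test over the doses gave Atg1 an adjusted p of 0.00226. Its partners Atg13, Atg17 (the fly counterpart of mammalian FIP200) and Atg101 were not called. Their log2 fold changes at 2000 nM were 0.01 ± 0.07, 0.15 ± 0.09 and -0.05 ± 0.10, with 95% intervals of -0.14 to 0.16, -0.05 to 0.35 and -0.25 to 0.16.

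Atg6 (FBgn0264325), the fly Beclin 1, which activates the lipid kinase Vps34, had 772, 789 and 912 at 0 nM, 665, 724 and 722 at 20 nM, 611, 601 and 701 at 200 nM and 579, 654 and 625 at 2000 nM (normalised counts). The 0 nM libraries lay above all hormone-treated ones, and 0 nM replicate 3 stood well above its own group. Atg6 fell by 1.33-fold at 2000 nM (log2 fold change -0.41 ± 0.09, adjusted p = 0.0025) and by 1.29-fold at 200 nM (adjusted p = 0.00688). Atg14, which directs the same kinase complex to autophagy, stood at -0.02 ± 0.09 log2 at 2000 nM with an interval of -0.21 to 0.18.

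Among genes that supply membrane and lipid to the growing autophagosome, Atg18b was the one that fell. Atg18b (FBgn0032935), a gene for a phosphoinositide-binding propeller of the WIPI type, had 242, 213 and 242 at 0 nM, 179, 217 and 197 at 20 nM, 179, 154 and 133 at 200 nM and 138, 141 and 137 at 2000 nM (normalised counts). The 3 values at 2000 nM were close together and below every library at 20 and 0 nM. The log2 fold change was -0.74 ± 0.12 at 2000 nM (adjusted p = 0.000394), -0.59 ± 0.12 at 200 nM (0.00313) and -0.24 ± 0.12 at 20 nM, where it was not called (0.505). The more abundant relative Atg18a was at 0.14 ± 0.06 log2 at 2000 nM (adjusted p = 0.133), the lipid transfer gene Atg2 at 0.08 ± 0.10 and the membrane protein gene Atg9 at -0.04 ± 0.08. The log2 ratio of Atg18b to Atg18a was -3.79 ± 0.05 at 2000 nM and -2.92 ± 0.16 at 0 nM (exact permutation test of F over 4 doses, p = 0.000714, 0.0013 adjusted over the 4 ratios). That pair was likewise chosen after the values were seen.

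In the system that conjugates Atg8 to lipid, the protease gene Atg4b (FBgn0038325), whose product trims Atg8 and releases it again, had 648, 620.0 and 682 at 0 nM, 587, 536 and 517 at 20 nM, 499, 482 and 472 at 200 nM and 501, 477 and 419.8 at 2000 nM (normalised counts). The 0 nM libraries lay above all others. Atg4b fell by 1.40-fold at 2000 nM (log2 fold change -0.48 ± 0.08, adjusted p = 0.000501) and 1.34-fold at 200 nM (adjusted p = 0.00185). Its relative Atg4a was at -0.09 ± 0.12 log2 at 2000 nM, with an interval of -0.36 to 0.17. The log2 ratio of Atg4b to Atg4a was -0.48 ± 0.15 at 2000 nM and -0.10 ± 0.05 at 0 nM (exact permutation test of F over 4 doses, p = 0.00812, also 0.00812 adjusted over the 4 ratios). That pair was likewise chosen after the values were seen. Of the annotated exon length of Atg4a, 51.4% is covered by CG4629 on the opposite strand, and the strand setting of the counting is not given.

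**Figure D4:**
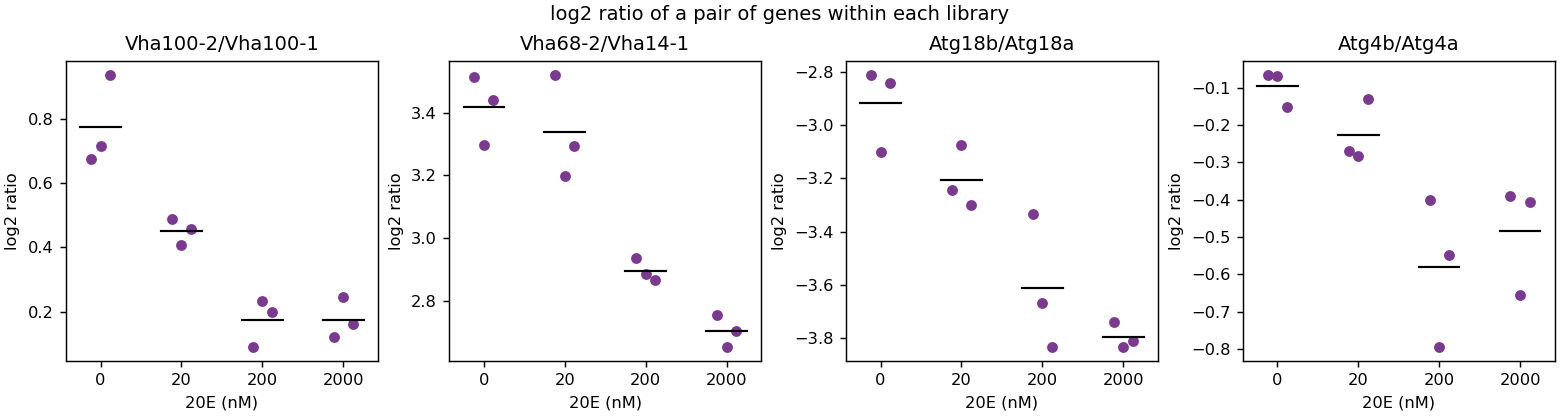
Log2 ratio of a pair of genes within each library, log2(normalised count + 1) of the first minus that of the second, against the 20E dose; points are libraries and lines the mean of the 3 libraries of a dose. The y axes differ between panels and do not start at 0, and all 4 ratios are lower at 200 and 2000 nM than at 0 nM, without overlap.

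Atg8a itself averaged 4392 ± 296 normalised counts at 2000 nM and 4554 ± 358 at 0 nM, a log2 fold change of -0.05 ± 0.07 with an interval of -0.21 to 0.11. Atg3, the enzyme that transfers Atg8 to lipid, averaged 465 ± 3.56 and 578 ± 28 and fell by 1.24-fold (adjusted p = 0.0211; 0.0083 to 0.0755 across the settings tried). That call ended without 0 nM replicate 2 (0.0584) or 3 (0.0755) and without 2000 nM replicate 1 (0.0535) or 3 (0.0511). Atg3 did not pass limma's F test over all contrasts with 0 nM (adjusted p = 0.0958), nor the authors' deposited test over the doses (adjusted p = 0.0837). Atg7, which activates both ubiquitin-like proteins, was at 0.07 ± 0.09 log2.

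Atg16 (FBgn0039705), which places the Atg12 and Atg5 conjugate on the membrane, had 596, 613 and 654 at 0 nM, 648, 722 and 672 at 20 nM, 804, 664 and 717 at 200 nM and 774, 775 and 798 at 2000 nM (normalised counts). The 200 and 2000 nM libraries all lay above the 0 nM libraries, while the lowest 20 nM library did not. Atg16 rose by 1.26-fold at 2000 nM (log2 fold change 0.33 ± 0.08, adjusted p = 0.00512). At 200 nM it stood at 0.23 ± 0.08 and was not called (adjusted p = 0.0569), but was called without 200 nM replicate 2 (0.0255) and when only genes at 50 or more in 3 libraries were tested (0.049). Its partners Atg5 and Atg12 and the enzyme gene Atg10 were at 0.03 ± 0.11, -0.01 ± 0.18 and -0.19 ± 0.15 log2 at 2000 nM and were not called. Atg10 and Atg12 had at most 168 and 81 reads in a library, and the intervals of their fold changes reached -0.51 to 0.13 and -0.40 to 0.39. Exons of Dgk on the opposite strand overlap 46.6% of those of Atg10.

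**Figure D5:**
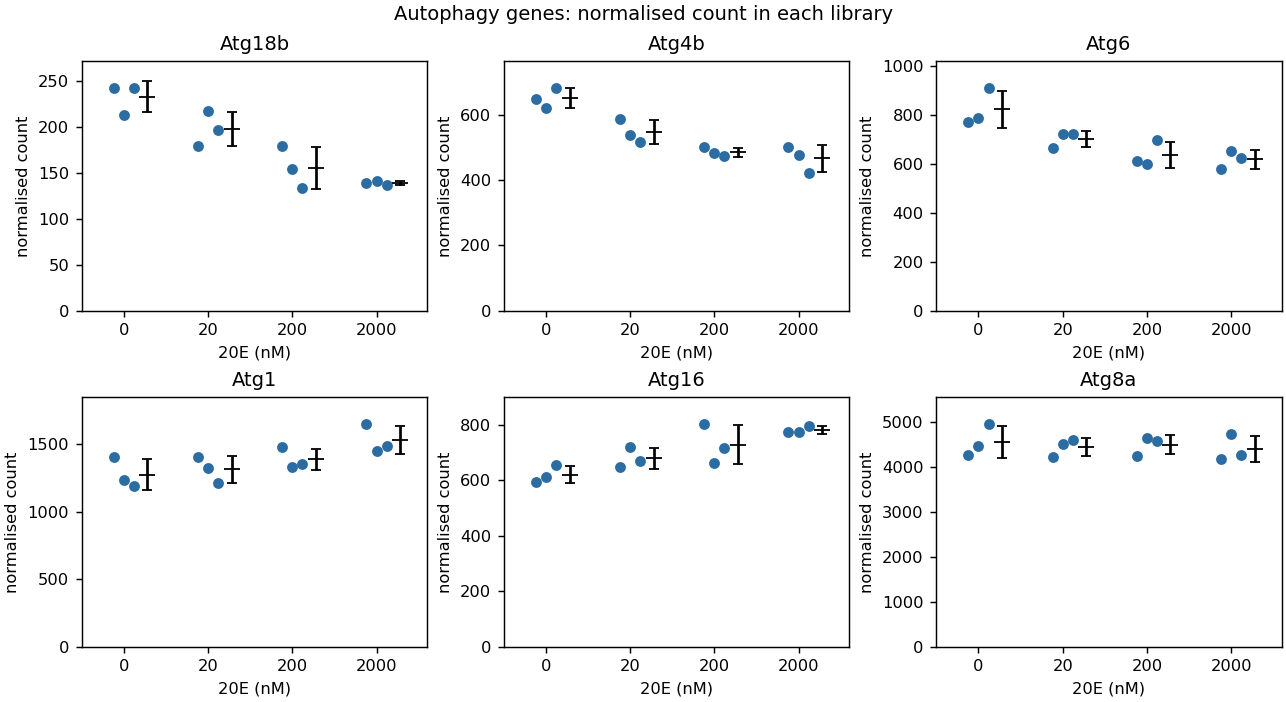
Normalised counts in each library against the 20E dose for 6 autophagy genes; points are the 3 libraries of a dose, offset for legibility, and the bar beside them is the mean ± SD. Atg18b, Atg4b and Atg6 are lower at 200 and 2000 nM than at 0 nM, Atg1 and Atg16 are higher at 2000 nM, and the dose groups of Atg8a overlap.

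Genes that act with these families were taken from lists, to be read beside the 15.5% of all genes called lower and 15.4% called higher at 2000 nM. Of 4 genes of the Vps34 kinase complex, Rubicon, a brake on the complex in mammals, fell by 0.36 ± 0.10 log2 at 2000 nM (adjusted p = 0.0146). The kinase gene Pi3K59F was at -0.02 ± 0.09 and was not called, nor were Vps15 and Uvrag. Among 9 cargo receptors and regulators 4 fell and 2 rose at 2000 nM, against 15.5% and 15.4% of all genes. DOR, known in flies as an Atg8-binding regulator of autophagy and a coactivator of the ecdysone receptor, averaged 154 ± 96.4 normalised counts at 2000 nM and 1837 ± 47.8 at 0 nM and fell by 3.73 ± 0.27 log2 (adjusted p = 9.97e-08). REPTOR, a transcription factor gene held in check by TORC1, fell by 1.03 ± 0.13 log2 (adjusted p = 3.60e-05) and its partner REPTOR-BP by 0.26 ± 0.09 (0.0356). The transcription factor gene foxo fell by 0.32 ± 0.09 (0.0179). The rises were those of bchs, the fly gene for the aggregate autophagy factor ALFY, by 0.84 ± 0.13 log2 (0.000157), and of the phosphoinositide phosphatase gene EDTP by 0.23 ± 0.06 (0.0104).

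Mitf, which encodes the factor known in flies to activate V-ATPase and lysosomal genes, averaged 1073 ± 94.7 normalised counts at 2000 nM and 1274 ± 128 at 0 nM. Its log2 fold change was -0.25 ± 0.10 and was not called (adjusted p = 0.0831). The cargo receptor gene ref(2)P, the fly p62, was at -0.14 ± 0.07 (0.153).

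Lysosomal hydrolase and membrane protein genes were mostly not called. Of 16 tested, 2 rose at 2000 nM, near the 15.4% of all genes, and the other 14 were not called, with a median log2 fold change of -0.04. The rises were those of Cln7, a lysosomal membrane transporter gene, by 1.46 ± 0.09 log2 (adjusted p = 2.70e-08) and Hexo1, a hexosaminidase gene, by 0.88 ± 0.07 (3.68e-07). The lysosomal membrane marker Lamp1 was at 0.09 ± 0.06 (adjusted p = 0.277), and the cathepsin genes Cp1, CG12163, 26-29-p and cathD at -0.20 ± 0.08, -0.11 ± 0.06, -0.11 ± 0.07 and 0.07 ± 0.06 log2. A difference between this list and the Vha genes was not tested.

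Of 18 fusion and tethering genes 4 fell and 2 rose at 2000 nM, which is near the 15.5% and 15.4% of all genes. Vps39 of the HOPS tether fell by 0.39 ± 0.09 log2 (adjusted p = 0.00457), the HOPS gene dor by 0.25 ± 0.08 (0.034), the syntaxin gene Syx13 by 0.27 ± 0.09 (0.0432) and Vps33B by 0.19 ± 0.07 (0.0489). The late endosomal GTPase gene Rab7 rose by 0.23 ± 0.07 (0.0164) and the lysosomal GTPase gene Arl8 by 0.25 ± 0.08 (0.0225).

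Of 20 genes for V-ATPase assembly and TORC1 sensing, 3 fell and 2 rose at 2000 nM, no more than the 15.5% and 15.4% of all genes. The amino acid transporter gene path rose by 3.81 ± 0.20 log2 (adjusted p = 3.88e-09). Wdr24 of the GATOR2 complex fell by 0.49 ± 0.09 (0.000664), Lst8 by 0.24 ± 0.08 (0.0354) and RagA-B by 0.24 ± 0.08 (0.0361). Rbcn-3A, which promotes assembly of the pump, was at -0.31 ± 0.13 (adjusted p = 0.0826) and Tor at 0.08 ± 0.10 (0.573), and neither was called.

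The 10 Vha genes that fell at 2000 nM lie on 4 chromosome arms in the annotation of the BDGP6.54 assembly, 5 on 3R, 2 each on 2L and 2R and 1 on X. These counts were not set against all Vha genes tested on each arm. They give positions only, and show neither a concentration nor a spread. In that annotation Vha68-2 is followed by Vha68-3, and Vha100-4 by Vha100-2. The summed level of the fat body markers was highest in 0 nM replicates 1 and 3, though not that of every marker. Whether fat body had a part in the fall of the Vha genes was not tested. Without 0 nM replicate 1, 9 Vha genes fell at 2000 nM, and without 0 nM replicate 3 likewise 9, with medians of -0.32 and -0.30 log2. Over all genes 2361 and 1947 were called in either direction in these fits, in place of 2618. Each of these fits kept the other of the 2 libraries. The authors' deposited p-values come with a likelihood ratio score over the doses, which gives no direction. By that test 12 of the 19 Vha genes and 5 of the 19 Atg genes had an adjusted p under 0.05, against 26% of the 9374 genes with a value. The 12 include Vha36-3, which rose, and Vha16-1, which the main limma fit did not call. The smallest adjusted p of the authors' test belonged to Vha68-2 (5.94e-64) and Vha100-2 (7.20e-25). By limma's F test over the 3 contrasts with 0 nM, 10 Vha and 4 Atg genes passed, against 23.7% of all 8455 genes.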

How the data were processed

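The submitters' processing notes name DESeq2 1.32.0, Subread 2.0.1, HISAT2 2.1.0 and SAMtools 1.13. Settings, build, gene models and strandedness of the counting are not given in these sources. The deposited signal values are read counts the authors scaled library by library; 1 recovered factor each made 100% of the values whole to within 0.001. The authors also deposited a log2 fold change with its SE, a test score and p-values per gene. Their rows were joined to identifiers through the deposited mean.

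Genes at 10 or more normalised counts in at least 3 of 12 libraries (8455) were tested on log2(value + 1) with limma 3.58.1 in R 4.3.3, with 1 mean per dose over all 12 libraries, an intensity trend and no block. Fold changes are on that scale and understate those of low genes. P-values are two-sided, adjusted by Benjamini-Hochberg over all 8455 genes with a threshold of 0.05; the fit was tested on simulated data. Whether the 3 libraries of a dose came from separate cultures is not labelled, so p-values measure only the spread between libraries. Intervals are at 95%. Shares of all genes at an unadjusted p under 0.05 were not computed, so member counts at that threshold have no yardstick. The exact permutation tests of 4 ratios ran over 369600 arrangements, with 6.49e-05 as the smallest possible p. Each ratio set a gene already seen to fall against a gene that was not called. This choice favoured a difference, and the adjustment over the 4 ratios does not correct for it.

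The genes and lists were chosen with earlier results of these data known. Genes past the threshold against 0 nM were named, with library values for the 14 of largest change at 2000 nM, and up to 6 genes per list with the smallest adjusted p, plus Mitf, DOR, ref(2)P, Lamp1 and Tor. The cathepsin gene cathD was named outside this rule. A result for 1 listed gene is not reported here. Exon lengths, symbols and overlaps came from Ensembl 115 (BDGP6.54), where 12167 of 12216 identifiers were found; Vha44 was matched by symbol. Same-numbered libraries deviated together only weakly and not in all pairs (median correlation 0.06, against -0.05 for other pairs). The labels name no pairing, so none was assumed.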

Additional observations from a re-analysis of the deposited data

How the results depend on the processing

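Of the 35 calls of single genes, none changed direction under the pseudocounts 0.5 and 5, no filter, a filter of at least 50 in 3 libraries, the replicate block, a fit of the 2 doses alone, scaling to the library total or upper quartile, limma-voom on whole reads, or leaving out each library; 28 stayed past the threshold in every setting that could be fitted, and 7 were lost in at least 1. The last 3 of these settings before the left-out libraries were chosen after seeing the data. Scaling moved the median of all genes by less than 0.1 log2. The count of Vha genes lower at 20 nM was 2 with the replicate block, the added gene being Vha68-2. With the filter of at least 50, the count of Atg genes higher at 200 nM was 1 and that of Vha genes higher at 2000 nM was 0, since Vha36-3 then drops out. Leaving out 1 library gave 0 to 1 Atg genes higher at 200 nM, 0 to 2 Vha genes higher at 2000 nM, 1 to 2 Atg genes higher at 2000 nM and 0 to 1 Atg genes lower at 200 nM against 20 nM. The replicate block is an alternative only: deviations of the 18 same-numbered pairs from their dose means correlated at -0.37 to 0.40, 7 of them above 0.1, and 6 of 12 libraries were closest to their own number. With the block 3076 genes passed at 2000 nM against 0 nM, in place of 2618, and Vha16-1 was called lower (adjusted p = 0.0283). The planned edgeR and DESeq2 tests were not run; limma-voom on the whole reads recovered from the deposited values was run in their place. Depth limits the genes at a few reads, Vha36-3, Vha68-1 and Vha100-4, most.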
